A study of Mus musculus with 11 samples.

Results

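Igkc encodes the constant region of the kappa immunoglobulin light chain, Iglc1, Iglc2 and Iglc3 the constant regions of the lambda light chain, and Iglv1, Iglv2 and Iglv3 the lambda variable (V) segments. These genes were taken from the deposited table by their symbols, all 7 were present among its 10885 genes, and each was read in all 11 libraries. RNA-seq had been run on all cells dissociated from the spleen and lymph node (LN) of 6 mice. The KI mice (mice 5 and 6) carry a knock-in that the labels write as Igk-BCL2, the Tg mice (mice 3 and 4) a transgene written as 3'RR-BCL2, and the Wt mice (mice 1 and 2) are wild-type. BCL2 is an anti-apoptotic gene, Igk is the kappa light chain locus, and 3'RR usually stands for the enhancer cluster downstream of the heavy chain constant genes. All 6 mice, Wt included, had been injected intraperitoneally with sheep red blood cells over 3 months, and tissue was collected 1 month after immunisation 3. Each group of tissue and genotype held 2 libraries except spleen Tg, which held 1 (mouse 4). The position and species of the inserted BCL2, the zygosity of the mice and their age are not given in the sources used here.

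A B cell joins a V segment to a short joining (J) segment, and the joined VJ unit is spliced to a constant region to make its light chain. Kappa is usually rearranged before lambda, most mouse B cells carry kappa, and a cell whose kappa rearrangements fail can go on to use lambda. In the mouse lambda locus Iglv1 is mostly joined to Iglj1 or Iglj3, which precede Iglc1 and Iglc3, while Iglv2 and Iglv3 are mostly joined to Iglj2, which precedes Iglc2. Plasma cells, the antibody-secreting end stage of the lineage, hold far more light chain RNA per cell than resting B cells.

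The J segments are shown because all 5 kappa J segments were without reads in KI mouse 6. GENCODE M21 transcripts (build GRCm38) gave the kappa J segments on the plus strand of chromosome 6 and the lambda J segments on the minus strand of chromosome 16. Capitals mark the motif TTCGG, any 4 bases and GG, searched on both strands, which 19 of the 84 annotated immunoglobulin and T cell receptor J segments (22.6%) hold. No match was found in Igkj3, which is known not to be used in functional mouse light chains. The sequences run 5′ to 3′.
Igkj1: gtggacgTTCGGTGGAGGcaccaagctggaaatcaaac
Igkj2: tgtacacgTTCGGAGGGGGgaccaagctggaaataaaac
Igkj3: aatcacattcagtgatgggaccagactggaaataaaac
Igkj4: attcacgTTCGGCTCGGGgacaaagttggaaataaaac
Igkj5: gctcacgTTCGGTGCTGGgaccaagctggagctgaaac
Iglj1: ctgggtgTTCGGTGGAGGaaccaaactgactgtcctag
Iglj2: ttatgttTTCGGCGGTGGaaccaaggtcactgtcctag
Iglj3: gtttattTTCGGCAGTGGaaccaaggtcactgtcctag

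The lambda constant regions are shown to make clear which of them reads can tell apart. The first 120 coding bases of each are given from the same transcripts, with capitals at the bases that differ from Iglc2, 28 in Iglc1 and 7 in Iglc3.
Iglc1: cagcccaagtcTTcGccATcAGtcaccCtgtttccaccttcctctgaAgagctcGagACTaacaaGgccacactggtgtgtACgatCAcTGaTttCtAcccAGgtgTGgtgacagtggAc
Iglc2: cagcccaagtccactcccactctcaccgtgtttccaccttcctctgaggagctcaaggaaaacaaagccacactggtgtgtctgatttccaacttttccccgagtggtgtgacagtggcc
Iglc3: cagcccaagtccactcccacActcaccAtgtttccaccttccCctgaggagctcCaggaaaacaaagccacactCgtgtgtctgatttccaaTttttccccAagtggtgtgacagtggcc

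Over the whole coding sequence Iglc2 and Iglc3 were 96.5% identical and Iglc1 and Iglc2 74.8% identical, and Iglv1 and Iglv2 were 96.7% identical. A stretch of 50 bases was shared in full between Iglc2 and Iglc3 at 7.65% of the positions in Iglc2 and 10.7% of those in Iglc3, and between Iglv1 and Iglv2 at 22.2% and 21.1%. Igkc, Iglc1 and Iglv3 shared no such stretch with another member. For stretches of 75 bases the figures were 0.931% in Iglc2, 1.32% in Iglc3, 9.46% in Iglv1 and 8.93% in Iglv2. For 100 bases they were 0% in Iglc2 and Iglc3, 1.71% in Iglv1 and 1.61% in Iglv2. How the authors' counting treated reads that fit more than 1 gene is not given in the sources used here, so the split within Iglc2 and Iglc3, and within Iglv1 and Iglv2, is uncertain.

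The values are the authors' normalised signal, read counts divided by 1 factor per library. Recovered depth over the genes of the table was 18994455 to 24110325 reads in spleen and 11128568 to 21067988 in LN. A gene of the table reached at least 109.3 in at least 1 library, and all 7 members lay above that level in all 11 libraries, the lowest value being 214 (Iglv2, LN of Wt mouse 1). Immunoglobulin genes together took 5.25% to 9.46% of the signal in the 4 KI libraries and 0.666% to 2.49% in the other 7. The 2 KI mice have the same label and yet stood apart from each other, with an SD of the log2 difference between mouse 6 and mouse 5 over all genes of 0.918 in LN and 0.903 in spleen, against 0.493 and 0.451 between the 2 Wt mice. The KI results are therefore given for each mouse and with each mouse left out.

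The 2 KI mice lay on opposite sides of Wt in the kappa constant region. In LN, Igkc (ENSMUSG00000076609) had a normalised signal of 419339 in KI mouse 5 and 4235 in KI mouse 6, of 31179 and 31009 in Tg mice 3 and 4, and of 22589 and 26307 in Wt mice 1 and 2. In spleen, Igkc had 336217 in KI mouse 5 and 5793 in KI mouse 6, 91369 in Tg mouse 4, and 69156 and 81719 in Wt mice 1 and 2. Mouse 5 was above and mouse 6 below every library of the other mice from the same tissue. Against the Wt mean, mouse 5 was 17.2-fold higher in LN and 4.46-fold higher in spleen, and mouse 6 was 5.77-fold lower in LN and 13.0-fold lower in spleen. Mouse 6 was thus 99.0-fold below mouse 5 in LN and 58.0-fold below it in spleen. In these whole-tissue samples, fewer cells of a type and less RNA per cell cannot be told apart.

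**Figure D1:**
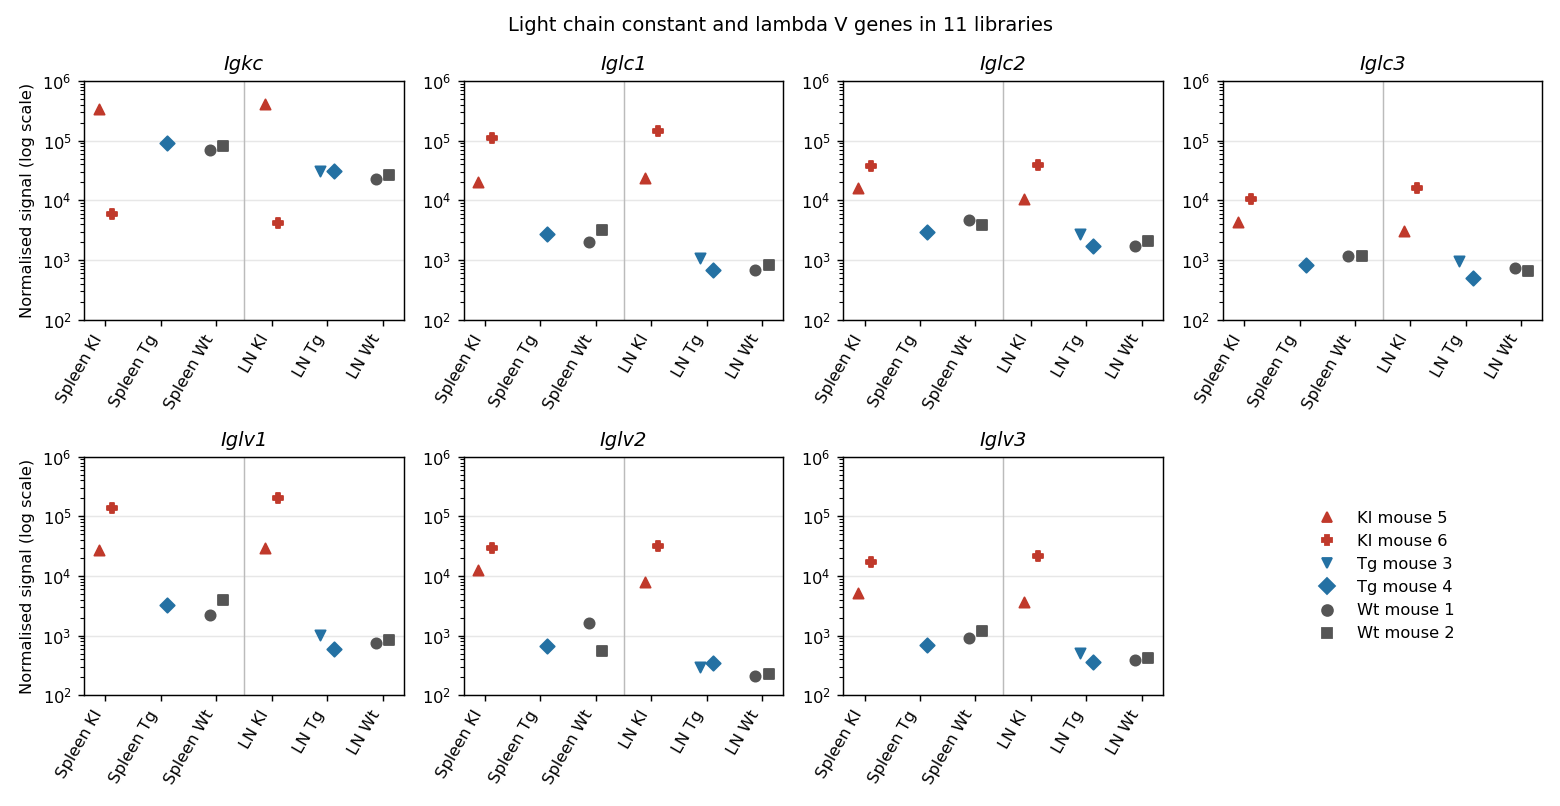
Normalised signal (log scale) of the 7 genes in the 11 libraries, 1 panel a gene and 1 point a library, with KI, Tg and Wt from left to right in spleen and then in LN. Igkc is high in KI mouse 5 and low in KI mouse 6 in both tissues, while the 6 lambda genes are above all other libraries in both KI mice, with mouse 6 above mouse 5.

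Igkc reads from mouse 6 came with almost no kappa J or V signal. All 5 kappa J segments, which lie between the kappa V segments and Igkc, were at 0 reads in both libraries of mouse 6. Igkj5, the J segment nearest to Igkc, had 391 in LN of KI mouse 5 and 0 in LN of mouse 6, 185 and 209 in LN of the Tg mice, and 197 and 166 in LN of the Wt mice. Taking 3 reads per library as the limit that a count of 0 allows, Igkj5 in mouse 6 was at least 52.6-fold lower than the Wt mean in LN and at least 95.9-fold lower in spleen. Summed over the 5 J segments, the signal was 1328 in LN of KI mouse 5 and 0 in LN of mouse 6, 609 and 815 in LN Tg, and 676 and 638 in LN Wt. In spleen the J sum was 1458 in KI mouse 5 and 0 in mouse 6, 939 in Tg, and 794 and 739 in Wt. Igkc itself still had 3685 reads in LN and 8085 reads in spleen of mouse 6.

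The kappa V segments followed the J segments in mouse 6 and Igkc in mouse 5. The 79 kappa V segments of the table, which encode most of the variable domain, summed to 206681 in LN of KI mouse 5 and 168 in LN of mouse 6, to 12713 and 15148 in LN Tg, and to 12025 and 13578 in LN Wt. In spleen they summed to 172700 in KI mouse 5 and 142 in mouse 6, 55683 in Tg, and 36311 and 43756 in Wt. In mouse 6, 38 of the 79 in LN and 42 in spleen were at 0 reads, and in each tissue 78 of the 79 were below all 9 libraries of the other mice. In mouse 5, 78 of the 79 in LN and 69 in spleen were above both Wt libraries, with a median of 15.3-fold over the Wt mean in LN and 4.02-fold in spleen. For neither mouse was the share of all genes with such an order counted, so these counts are a description only. A segment that was low in every library would not be in the table, and 6 of the 79 passed its minimum only in KI libraries.

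The most abundant kappa V segment by mean signal, Igkv1-117, had 14605 in LN of KI mouse 5 and 1.15 in LN of mouse 6 (a single read), 481 and 591 in LN Tg, and 437 and 564 in LN Wt. Igkv1-110 had 12576 in LN of mouse 5 and 4.60 in LN of mouse 6, and Igkv6-15 had 9935 in LN of mouse 5 and 1.15 in LN of mouse 6. The kappa V sum was 0.493 of the Igkc signal in LN and 0.514 in spleen of mouse 5, and 0.0396 in LN and 0.0245 in spleen of mouse 6. In the 7 Tg and Wt libraries it was 0.408 to 0.609, so that mouse 5 lay within that range and mouse 6 below it in both tissues.

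**Figure D2:**
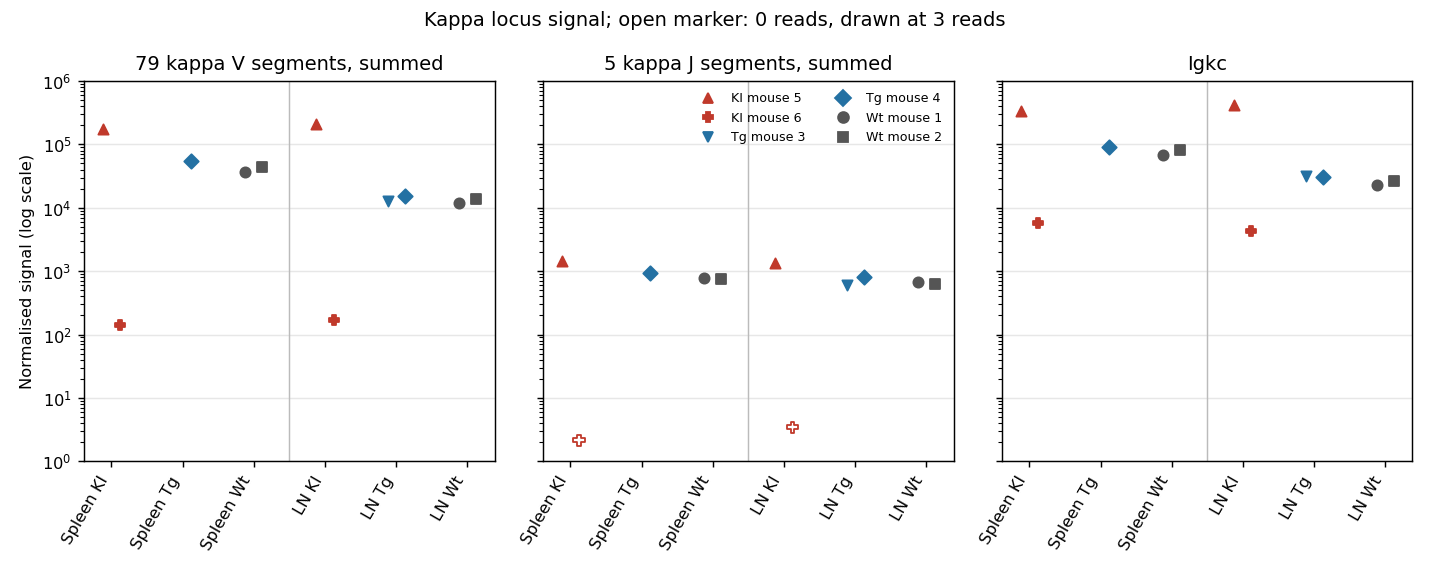
Normalised signal (log scale) of the 79 kappa V segments summed, the 5 kappa J segments summed, and Igkc, 1 point a library, with KI, Tg and Wt from left to right in spleen and then in LN. Open markers stand for 0 reads and are drawn at the level of 3 reads, which applies to kappa J in mouse 6. Its kappa V sums of 142 in spleen and 168 in LN lie far below its Igkc values of 5793 and 4235.

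All 3 lambda constant regions were higher in both KI mice than in any other library, and higher in mouse 6 than in mouse 5. In LN, Iglc1 (ENSMUSG00000105906) had 23896 in KI mouse 5 and 147481 in KI mouse 6, 1091 and 685 in Tg mice 3 and 4, and 692 and 826 in Wt mice 1 and 2. In spleen, Iglc1 had 20320 in KI mouse 5 and 111858 in KI mouse 6, 2738 in Tg mouse 4, and 1992 and 3210 in the Wt mice. Relative to the Wt mean, Iglc1 was 31.5-fold higher in LN of mouse 5 and 194-fold higher in LN of mouse 6, and 7.81-fold and 43.0-fold higher in the spleens of mice 5 and 6. The Tg libraries overlapped the Wt libraries in both tissues.

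Iglc2 (ENSMUSG00000076937), the lambda constant region downstream of Iglj2, had 10663 in LN of KI mouse 5 and 39361 in LN of mouse 6, 2715 and 1742 in LN Tg, and 1735 and 2052 in LN Wt. In spleen it had 15856 in KI mouse 5 and 36938 in mouse 6, 2965 in Tg, and 4630 and 3907 in Wt. Its excess over the Wt mean, 5.63-fold and 20.8-fold in LN of mice 5 and 6 and 3.71-fold and 8.65-fold in spleen, was smaller than that of Iglc1 in each KI library. Iglc3 (ENSMUSG00000105547), the constant region nearest in sequence to Iglc2, had 3007 in LN of KI mouse 5 and 16346 in LN of mouse 6, 948 and 502 in LN Tg, and 747 and 643 in LN Wt. In spleen it had 4301 in KI mouse 5 and 10568 in mouse 6, 827 in Tg, and 1166 and 1163 in Wt. The lowest KI value of Iglc2 or Iglc3 was above the highest Tg or Wt value of the same gene in both tissues.

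The lambda V segments had the same order of libraries. In LN, Iglv1 (ENSMUSG00000076934) had 29657 in KI mouse 5 and 202593 in mouse 6, 1042 and 591 in Tg, and 760 and 842 in Wt. In spleen it had 27318 in KI mouse 5 and 138320 in mouse 6, 3278 in Tg, and 2181 and 4034 in Wt. Iglv1 was the member with the greatest excess in mouse 6, 253-fold over the Wt mean in LN and 44.5-fold in spleen. Iglv2 (ENSMUSG00000076940) had 7905 in LN of KI mouse 5 and 31282 in LN of mouse 6, 296 and 349 in LN Tg, and 214 and 230 in LN Wt. In spleen it had 12407 in KI mouse 5 and 29032 in mouse 6, 663 in Tg, and 1621 and 557 in Wt. The Wt spleens were far apart in Iglv2, with a mean of 1089 ± 752 (SD, n = 2), and the Tg spleen lay between them. Iglv3 (ENSMUSG00000076939) had 3679 in LN of KI mouse 5 and 21766 in LN of mouse 6, 507 and 356 in LN Tg, and 387 and 429 in LN Wt. In spleen it had 5097 in KI mouse 5 and 17282 in mouse 6, 685 in Tg, and 910 and 1177 in Wt.

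In the KI libraries the V segments were further above Wt than the constant regions they are usually joined to. Iglv1 signal was 1.10 of the summed Iglc1 and Iglc3 signal in LN and 1.11 in spleen of KI mouse 5, and 1.24 in LN and 1.13 in spleen of KI mouse 6, against 0.498 to 0.922 in the 7 Tg and Wt libraries. The sum of Iglv2 and Iglv3 was 1.09 and 1.35 of Iglc2 in LN and 1.10 and 1.25 in spleen of KI mice 5 and 6, against 0.296 to 0.547 in the Tg and Wt libraries. Both ratios were higher in all 4 KI libraries than in any of the other 7. They are read across libraries only, since the genes differ in length. Iglj1, the only lambda J segment in the table, had 68.0 in LN of KI mouse 5 and 211 in LN of mouse 6, 34.0 and 20.3 in LN Tg, and 14.5 and 10.9 in LN Wt. In spleen it had 58.3 in KI mouse 5 and 112 in mouse 6, 27.2 in Tg, and 51.1 and 26.0 in Wt, so that mouse 5 was close to Wt mouse 1. Iglj1 reached the table's minimum in KI libraries only.

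The share of lambda in the light chain constant signal, which is the sum of Iglc1, Iglc2 and Iglc3 over that sum plus Igkc, differed between the KI mice far more than between any other replicates. In LN it was 8.22% in KI mouse 5 and 98.0% in KI mouse 6, 13.2% and 8.63% in the Tg mice, and 12.3% and 11.8% in the Wt mice. In spleen it was 10.7% in KI mouse 5 and 96.5% in KI mouse 6, 6.67% in the Tg mouse, and 10.1% and 9.20% in the Wt mice. The LN of mouse 5 was below both Wt LN and the spleen of mouse 5 was above both Wt spleens, at -3.84 and 1.08 points from the Wt mean. Mouse 6 exceeded the Wt mean by 85.9 points in LN and 86.8 points in spleen. The group means, 53.1% ± 63.5 in KI and 12.1% ± 0.363 in Wt LN (SD, n = 2 each), and 53.6% ± 60.6 in KI and 9.66% ± 0.652 in Wt spleen, describe neither KI mouse. The widest 95% Wilson interval of a share was 11.8% to 12.8%, in LN of Wt mouse 1, and these intervals cover counting error only. Per base of gene length the share was 8.87% and 98.2% in LN and 11.3% and 96.8% in spleen of KI mice 5 and 6.

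Taken from V segments, as the sum of Iglv1 to Iglv3 over that sum plus the 79 kappa V segments, the lambda share was 16.6% and 99.9% in LN and 20.6% and 99.9% in spleen of KI mice 5 and 6. It was 12.7% and 7.88% in LN and 7.67% in spleen of the Tg mice, and 10.2% and 9.95% in LN and 11.5% and 11.6% in spleen of the Wt mice. By this measure both KI mice were above all Tg and Wt libraries. By constant regions, mouse 5 was below all 4 Tg and Wt LN in LN and above all 3 Tg and Wt spleens in spleen, by less than 1 point in each tissue. Per base of gene length, the LN of Tg mouse 4 was lower (8.57%) than the LN of mouse 5.

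**Figure D3:**
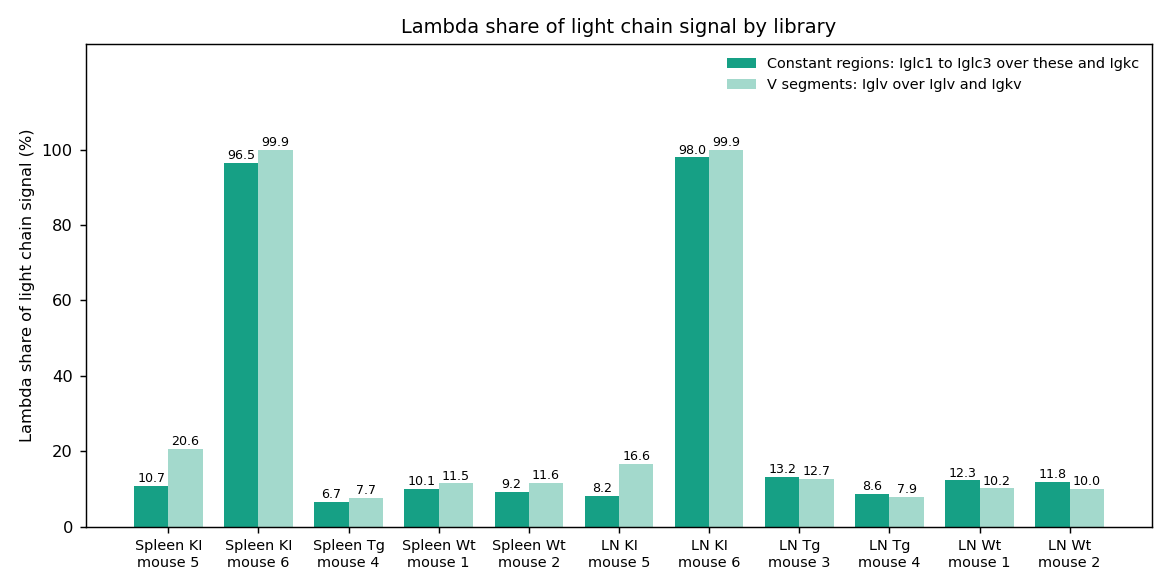
Lambda share of light chain signal (%) in each library, from constant regions (dark bars) and from V segments (light bars), with KI, Tg and Wt from left to right in spleen and then in LN; each bar is 1 library. Mouse 6 is at 96.5% or more in both tissues by both measures, and mouse 5 is at 8.22% and 10.7% by constant regions.

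The lambda signal of the KI mice was made up differently from that of Tg and Wt. In LN, Iglc1 was 63.6% and 72.6% of the lambda constant signal in KI mice 5 and 6, 23.0% and 23.4% in the Tg mice, and 21.8% and 23.5% in the Wt mice. In spleen, Iglc1 was 50.2% and 70.2% in KI mice 5 and 6, 41.9% in the Tg mouse, and 25.6% and 38.8% in the Wt mice. The KI libraries were above all others in Iglc1 share, with a wide gap in LN and a narrow one between the spleen of mouse 5 and that of the Tg mouse. Iglc2 was 28.4% and 19.4% in KI LN, 57.1% and 59.5% in Tg LN, and 54.7% and 58.3% in Wt LN. Iglc2 in spleen was 39.2% and 23.2% in KI, 45.4% in Tg, and 59.4% and 47.2% in Wt. Iglc3 took the smallest share in each KI library, 8.01% and 8.04% in LN and 10.6% and 6.63% in spleen, against 17.1% to 23.5% in the LN and 12.7% to 15.0% in the spleens of Tg and Wt mice. Since the Iglc2 gene model is the longest of the 3 and takes in Iglj2, the mix was also read per base of gene length, where Iglc1 was 68.6% and 76.4% in KI LN, 26.9% and 27.6% in Tg LN, and 25.4% and 27.6% in Wt LN. In spleen Iglc1 per length was 55.8% and 74.6% in KI, 47.5% in Tg, and 30.2% and 44.1% in Wt. Per length Iglc1 therefore also exceeded Iglc2 in the Tg spleen and in the spleen of Wt mouse 2, where Iglc2 was 38.1% and 39.8%.

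The higher Iglc1 share was present in mouse 5 too, whose lambda share of constant signal was 8.22% in LN and 10.7% in spleen. Among the V segments, Iglv1 was 71.9% and 79.2% of the lambda V signal in LN of KI mice 5 and 6, 56.5% and 45.6% in Tg LN, and 55.8% and 56.1% in Wt LN. In spleen Iglv1 was 60.9% and 74.9% in KI, 70.9% in Tg, and 46.3% and 69.9% in Wt, so that the groups overlapped there. The shares within lambda are given without a test, because they are scores over genes chosen with earlier results of these data known.

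**Figure D4:**
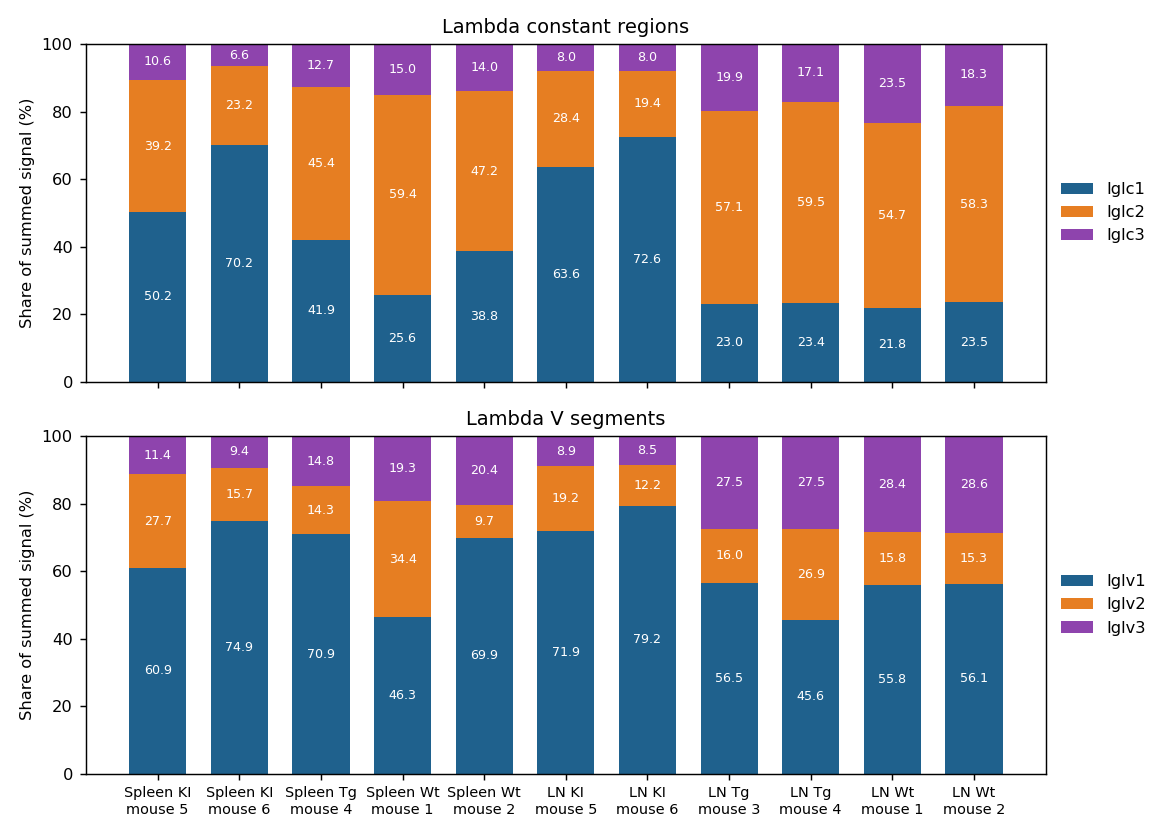
Share (%) of Iglc1, Iglc2 and Iglc3 in the summed lambda constant signal (top) and of Iglv1, Iglv2 and Iglv3 in the summed lambda V signal (bottom), 1 bar a library, with KI, Tg and Wt from left to right in spleen and then in LN. Iglc1 is the largest part of all 4 KI bars in the top panel and Iglc2 the largest part of the other 7, an order that per base of gene length turns round in the Tg spleen and the spleen of Wt mouse 2.

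The effect of the knock-in was tested as KI against Wt within each tissue, on log2(signal + 1) with limma, at a Benjamini-Hochberg adjusted p under 0.05 over all 10885 genes. In LN 5 of the 7 members rose and 0 fell, where 13.8% of all genes were called higher, 12.2% lower and 26.0% in either direction. Iglv1 rose by 6.60 ± 1.19 (SE; limma adjusted p = 0.0144), Iglc1 by 6.29 ± 1.16 (limma adjusted p = 0.0156), Iglv2 by 6.14 ± 0.87 (limma adjusted p = 0.00654), Iglv3 by 4.45 ± 0.99 (limma adjusted p = 0.0276) and Iglc2 by 3.44 ± 0.72 (limma adjusted p = 0.0224). Iglc3 differed by 3.34 ± 0.91 and missed the threshold (limma adjusted p = 0.0506), though edgeR's quasi-likelihood test on recovered reads called it (adjusted p = 0.0212) among 6 members. DESeq2 also called 6, where edgeR called 10.8% and DESeq2 13.2% of all genes higher. Igkc differed by 0.79 ± 2.76 (limma adjusted p = 0.873), with 1 KI mouse far above and the other far below Wt. The 6 lambda genes had both KI libraries above both Wt libraries, and Igkc did not. How many of all genes separate in this way was not counted in LN or in spleen, so the order is a description only. The fit takes the tissues of 1 mouse as independent. Fitted on LN libraries alone, 3 of the 7 were called, with Iglc2 (limma adjusted p = 0.0637) and Iglv3 (limma adjusted p = 0.0770) lost, where 11.2% of all genes were called higher.

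In spleen 1 of the 7 members rose and 0 fell, where 7.63% of all genes were called higher, 9.21% lower and 16.8% in either direction. Iglv2 rose by 4.32 ± 0.87 (limma adjusted p = 0.0303). Fitted on spleen libraries alone, that call was lost (limma adjusted p = 0.114), where 10.4% of all genes were called higher. The other 5 lambda genes differed by 2.51 (Iglc2) to 4.37 (Iglv1) with limma adjusted p of 0.0676 to 0.126, again with both KI spleens above both Wt spleens, and Igkc differed by -0.77 ± 2.76 (limma adjusted p = 0.874). The SE of a member is the same in both tissues because all 11 libraries share 1 estimate of the spread per gene.

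With 1 KI mouse left out, the spread of the lone remaining mouse was taken from the other groups, and the calls became those of that mouse. Without mouse 5, Igkc fell by 2.52 ± 0.18 in LN (limma adjusted p = 7.22e-05) and fell by 3.70 ± 0.18 in spleen (limma adjusted p = 5.71e-06), and all 6 lambda genes rose in both tissues, where 7.05% of all genes were called higher and 5.06% lower in LN, and 1.98% higher and 3.94% lower in spleen. Without mouse 6, Igkc rose by 4.10 ± 0.19 in LN (limma adjusted p = 1.27e-05) and by 2.16 ± 0.19 in spleen (limma adjusted p = 0.000891). All 6 lambda genes then rose in LN and 5 of 6 in spleen, all but Iglv2 (3.71 ± 0.65, limma adjusted p = 0.0551), where 9.53% of all genes were called higher in LN and 2.47% in spleen. The direction of Igkc therefore depended on which KI mouse was kept, and that of the 6 lambda genes did not. Without both tissues of Wt mouse 1, or of Wt mouse 2, the lambda calls were lost in both tissues, with the lambda differences still positive. These fits leave 1 Wt library per tissue.

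KI was also set against Tg, which carries BCL2 in another form. In LN all 6 lambda genes rose and Igkc was not called, where 14.5% of all genes were called higher; the lambda genes differed by 3.24 (Iglc2) to 6.62 (Iglv1). Against the single Tg spleen 0 of the 7 were called by limma, where 3.35% of all genes were called higher, 7.71% in either direction, and 2839 genes had an unadjusted p under 0.05. The KI comparisons with Tg and with Wt use the same KI libraries.

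Between Tg and Wt, which asks what the 3'RR-BCL2 transgene changed, no member was called in either tissue. Limma called 0 of all genes in both (0% background; 532 genes in LN and 164 in spleen at an unadjusted p under 0.05), edgeR called 0 in LN, and DESeq2 called 27 higher (0.248%) and 1 lower (0.00919%) in LN, none of them a member. In LN Igkc was above Wt in both Tg libraries, by 0.35 ± 2.76, and Iglv2 likewise by 0.53 ± 0.87, while the other 5 members overlapped between Tg and Wt. The share of all genes without overlap was not counted here either. With all 4 KI libraries left out of the fit, an alternative chosen after seeing the data, Igkc differed by 0.35 ± 0.15 in LN (limma adjusted p = 0.999) and by 0.28 ± 0.19 in spleen (limma adjusted p = 1). The interaction of Tg and tissue called 0 of the 7 members by limma, with 200 of all genes at an unadjusted p under 0.05. A difference of the size of these errors, or larger than them, could go uncalled with 2 libraries or fewer per group.

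Light chain signal was lower in LN than in spleen of both Wt mice. Igkc averaged 24448 ± 2629 in LN and 75438 ± 8883 in spleen (SD, n = 2 each), Iglc1 759 ± 94.9 in LN and 2601 ± 861 in spleen, and Iglc2 1894 ± 224 in LN and 4268 ± 511 in spleen. All 7 members had both Wt LN libraries below both Wt spleens. The share of all genes with that order was not counted, so it is a description only. In the fit of all 11 libraries 0 of the 7 were called by limma, where 6.29% of all genes were called lower in LN, 9.38% in either direction and 2535 genes at an unadjusted p under 0.05. Without the KI libraries 4 of the 7 fell, with log2 differences of -1.62 ± 0.15 for Igkc (limma adjusted p = 0.000982), -1.34 ± 0.20 for Iglv3 (limma adjusted p = 0.00513), -1.17 ± 0.21 for Iglc2 (limma adjusted p = 0.0149) and -1.74 ± 0.30 for Iglc1 (limma adjusted p = 0.0232), where 5.76% of all genes were called lower. With the mouse as a fixed term, which pairs the tissues of 1 mouse, 5 of the 7 fell, Iglv1 being added (limma adjusted p = 0.000811), where 9.38% of all genes were called lower. The lambda share of constant signal was 12.1% ± 0.363 in Wt LN and 9.66% ± 0.652 in Wt spleen (SD, n = 2 each), with both LN above both spleens.

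In each KI mouse the tissues were closer to each other than the mice were. Igkc was 419339 in LN and 336217 in spleen of mouse 5, and 4235 in LN and 5793 in spleen of mouse 6. Between LN and spleen of KI mice 0 of the 7 members were called by limma, without or with a mouse term. Of all genes, 9.27% were called there without a mouse term and 13.5% with the mouse as a fixed term. Whether the knock-in effect differed between LN and spleen was tested as an interaction, which called 0 of the 7 members in the fit without a mouse term (0.955% of all genes were called, and 1584 genes had an unadjusted p under 0.05). With the mouse as a fixed term the interaction was positive (LN effect minus spleen effect) for 4 of the 7, Iglv1 by 2.22 ± 0.27 (limma adjusted p = 0.00603), Iglc1 by 2.06 ± 0.18 (limma adjusted p = 0.000144), Igkc by 1.56 ± 0.25 (limma adjusted p = 0.00703) and Iglv3 by 1.27 ± 0.26 (limma adjusted p = 0.0425), where 4.41% of all genes were called positive and 5.38% in either direction. For Igkc the mean effects behind it were 0.79 in LN and -0.77 in spleen, each with an SE of 2.76. Neither KI mouse had effects of opposite sign, since mouse 5 was above Wt and mouse 6 below Wt in both tissues. Igkc differed between LN and spleen by -0.067 ± 0.17 in KI and by -1.62 ± 0.17 in Wt with the mouse as a fixed term. That fit leaves 2 residual degrees of freedom. Without the mouse term and without mouse 6, Igkc was called for the interaction (limma adjusted p = 0.0461), where 0.129% of all genes were called positive.

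Ordered by group mean, all 7 members were lowest in LN Wt, next in LN Tg, and highest in the 2 KI groups, with spleen Wt and spleen Tg between. LN Tg and LN Wt overlapped in 5 of the 7 members, and the Tg spleen lay between the 2 Wt spleens for Iglc1, Iglv1 and Iglv2, above both for Igkc and below both for Iglc2, Iglc3 and Iglv3. For Igkc the KI groups span all others, since mouse 5 is above and mouse 6 below them.

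Libraries with a high light chain constant signal also had a high heavy chain constant signal. Summed over Igkc and the 3 Iglc genes, the light chain signal was 456905 and 207423 in LN of KI mice 5 and 6, 35933 and 33939 in LN Tg, and 25763 and 29829 in LN Wt. In spleen it was 376693 and 165156 in KI mice 5 and 6, 97899 in Tg, and 76944 and 89999 in Wt. The heavy chain constant genes, 8 in the table, summed to 855652 and 594576 in LN of KI mice 5 and 6, 91213 and 85481 in LN Tg, and 70634 and 80216 in LN Wt. Light over heavy signal was 0.534 and 0.349 in LN and 0.514 and 0.341 in spleen of KI mice 5 and 6, 0.394 and 0.397 in LN and 0.398 in spleen of Tg mice, and 0.365 and 0.372 in LN and 0.403 and 0.416 in spleen of Wt mice. Mouse 5 was above and mouse 6 below all Tg and Wt libraries in this ratio, in both tissues. The sum of light chain signal in mouse 6 was above Wt, 7.46-fold in LN and 1.98-fold in spleen, although its Igkc was below Wt.

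**Figure D5:**
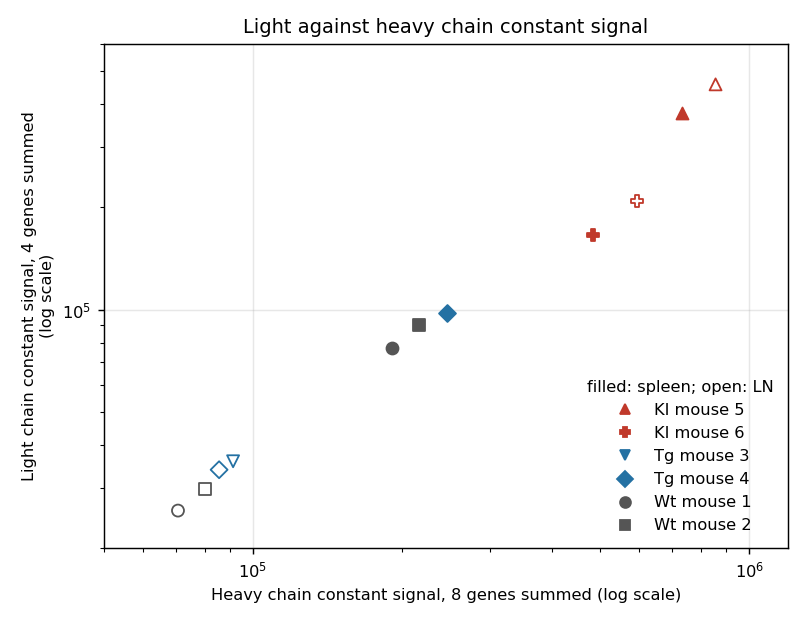
Summed light chain constant signal (Igkc, Iglc1, Iglc2, Iglc3) against summed heavy chain constant signal (8 genes) in each library, both on log scales, filled markers for spleen and open markers for LN. The 4 KI libraries are highest on both axes, and mouse 6 lies below mouse 5 on the light chain axis at 165156 and 207423.

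Genes that share the pathway or the cell types were read from lists, against the 13.8% of all genes called higher and 12.2% called lower in LN, and 7.63% and 9.21% in spleen. Of the 8 heavy chain constant genes, 5 rose and 1 fell in KI LN against Wt LN (median 3.37 on the log2 scale, against -0.02 over all genes), among them Igha by 2.80 ± 0.28, Ighm by 1.17 ± 0.16 and Ighg2c by 5.94 ± 0.62, with limma adjusted p of 0.00186 or less. In spleen 4 rose and 0 fell (median 1.93). Of the 3 measured partners of the B cell receptor and surrogate light chain, 1 rose in LN (Cd79b, a signalling chain of the receptor, by 0.75 ± 0.13) and 2 in spleen (Cd79b and Vpreb3). Of 7 measured rearrangement genes, none fell in either tissue. Lig4, the end-joining ligase, rose by 1.13 ± 0.27 in LN and Dclre1c, which opens hairpin ends, by 0.63 ± 0.16. In spleen neither was called, with Lig4 at 0.72 ± 0.27 (limma adjusted p = 0.0900) and Dclre1c at 0.05 ± 0.16 (limma adjusted p = 0.848). Rag1, the recombinase subunit, reached the table's minimum in a KI library only, so its values are a description, with 45.0 and 54.0 in LN of KI mice 5 and 6, 7.08 and 1.69 in LN Tg, and 0 and 3.28 in LN Wt, and with 92.6 and 360 in spleen of KI mice 5 and 6, 3.19 in spleen Tg, and 4.64 and 21.2 in spleen Wt. Of 13 factors that bind light chain enhancers or promoters, 6 rose and 2 fell in LN (median 0.38), including the B cell coactivator Pou2af1 by 1.14 ± 0.14 and Ikzf3 by 0.60 ± 0.13, while Nfkb1 fell by 0.46 ± 0.11; in spleen 1 rose (Ikzf3) and 1 fell (Irf4, named after its values were seen), which is near the background.

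Cell type markers moved in the same comparison. Of 14 plasma cell genes 12 rose and 0 fell in KI LN (median 2.25), and 9 rose and 1 fell in KI spleen (median 0.92), but 2 of the 14 (Fkbp11 and Tnfrsf17) reached the table's minimum in KI libraries only. Their summed signal was 170327 and 173633 in LN of KI mice 5 and 6, 25392 and 24551 in LN Tg, and 17571 and 21937 in LN Wt, and it was 150238 and 95860 in KI, 41631 in Tg, and 40091 and 37358 in Wt spleens. Jchain, which joins IgM and IgA into polymers and was picked out after its values were seen, had 122650 and 128795 in LN and 105380 and 61413 in spleen of KI mice 5 and 6. It had 6602 and 4465 in LN and 13506 in spleen of Tg mice, and 2972 and 3700 in LN and 11929 and 10992 in spleen of Wt mice. Of 12 pan B cell genes 6 rose and 2 fell in LN (median 0.42) and 3 rose and 1 fell in spleen (median 0.33), the falls being near the background. Of 12 pan T cell genes 0 rose and all 12 fell in each tissue (medians -1.01 in LN and -1.06 in spleen). Of 7 measured macrophage genes 0 rose and 3 fell in LN (median -0.63), and none was called in spleen. Of 8 neutrophil and 7 erythroid genes none was called by limma in either tissue. The summed neutrophil signal varied within groups, with 1451 and 5326 in KI spleens, 38669 in the Tg spleen, and 5270 and 45488 in Wt spleens. The summed erythroid signal was 25772 and 2910 in KI spleens, 1066 in the Tg spleen, and 999 and 659 in Wt spleens. What part these shifts have in the light chain differences was not tested.

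The genes whose profile over the 11 libraries was nearest to Igkc were kappa V segments: Igkv2-109, Igkv3-2, Igkv8-18, Igkv6-20 and Igkv4-79, with a root mean square difference of centred log2 values of 0.409 to 0.717. For Iglc1 the nearest was Iglv1 (0.201), then Lrrc15 (0.599), Iglv2, Iglv3 and the heavy chain segment Ighv5-17. Lrrc15, a membrane protein gene, was low throughout, with 30.7 and 224 in LN of KI mice 5 and 6 and 0 in each of the 4 Tg and Wt LN. Of the genes listed as nearest, Lrrc15, Cd209d, Igkv8-18 and Ighv9-4 reached the table's minimum in KI libraries only. For Iglc2 the nearest was Iglc3 (0.239), then the C-type lectin gene Cd209d (0.382), Iglv3, the heavy chain segment Ighv9-4 and Sdc1, the plasma cell surface protein CD138 (0.558). These are descriptions over 11 libraries, 4 of which come from the KI mice and set most of the range.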

How the data were processed

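RNA had been extracted with NucleoSpin or RNeasy kits and libraries made with a SMARTER mRNA-seq kit, per the labels' protocols. The submitters' processing notes name FastQC 0.11.5, STAR 2.5, featureCounts, Subread 1.4.6, DESeq2 1.26.0 and GRCm39. Strand setting, annotation and multi-mapping are not given in the sources used here. Values that the authors deposited are a normalised signal, and they are whole multiples of 1 factor per library within 0.05 reads. The deposited table holds genes that reach a minimum in at least 1 library. Differences were tested with limma 3.58.1 (R 4.3.3; trended, robust variance) on log2(signal + 1) over 6 groups and 11 libraries, adjusted over 10885 genes by Benjamini-Hochberg at 0.05. edgeR 4.0.16 and DESeq2 1.42.0 were run on recovered reads of LN only. The fits were checked on simulated data with independent libraries and changes planted in LN KI only. That check does not cover the pairing of tissues or the spread between the 2 KI mice. Tested differences are on the log2(signal + 1) scale, and folds over Wt are ratios of signal to the arithmetic Wt mean. The spread of the lone Tg spleen was taken from the other groups.

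Spleen and LN of 1 mouse carry the same subject number, so the numbers pair tissues. Deviations from the group means correlated at 0.403 in Wt and 0.900 in KI. The members, the gene lists and the tests were chosen with earlier results of these data known. The genes set beside each constant region are the 5 with the smallest root mean square difference. Alternatives were other pseudocounts (0.1 and 5), a mean signal filter of 200, other scalings, 1 tissue per fit, a mouse term, each library or mouse left out, and all KI libraries left out, the last chosen after seeing the data. Sequences are from GENCODE M21 (GRCm38), and no coordinates were carried between builds.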

Additional observations from a re-analysis of the deposited data

Results flagged for a closer look

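The knock-in effect (KI minus Wt, log2) differed between LN and spleen for 4 of the 7 genes when the mouse was a fixed term. That fit called 5.38% of all genes in either direction and 4.41% positive, with 2 residual degrees of freedom. The LN effect minus the spleen effect was 2.22 for Iglv1, 2.06 for Iglc1, 1.56 for Igkc and 1.27 for Iglv3. For Igkc the mean effects were 0.79 in LN and -0.77 in spleen, each with an SE of 2.76, and the KI mean describes neither KI mouse. Mouse 5 was above Wt and mouse 6 below Wt in both tissues. Without the mouse term none of the 7 was called by limma (adjusted p of 0.585 to 0.916), with 1584 genes at an unadjusted p under 0.05.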

How the results depend on the processing

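Pseudocounts of 0.1 and 5 and the signal filter changed no count of members called by more than 1.5 times. With 1 tissue per fit, 3 members were called in LN KI against Wt, 0 in spleen KI against Wt and 3 in LN KI against Tg, where 2215, 2428 and 2171 of all genes were called. Quantile normalisation called 3 in spleen KI against Wt, where 2084 of all genes were called. It called 1 in spleen KI against Tg, and scaling without immunoglobulin and haemoglobin genes also called 1 there. Of all genes, 1182 were called in that comparison after quantile normalisation and 1075 after the scaling. With the mouse as a fixed term (replicate block), 4 members were called for the difference of the KI effect between LN and spleen and 5 for LN against spleen in Wt. Of all genes, 586 and 1572 were called in these fits. With the KI libraries left out, 4 were called for LN against spleen in Wt, where 876 of all genes were called. The mouse as a random term added Iglc3 in LN KI against Wt (limma adjusted p = 0.0497) and changed no other count. In LN Tg against Wt, Iglc3 and Iglv1, at -0.01 and -0.03, were 0.036 and 0.014 when scaled without immunoglobulin and haemoglobin genes, 0.018 and 0.0077 after quantile normalisation, 0.076 and 0.041 with edgeR, and 0.086 and 0.050 with DESeq2.

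With single libraries or mice left out, the members called ranged over 0 to 7 in LN KI against Wt and in spleen KI against Wt, 1 to 7 in LN KI against Tg, 0 to 7 in spleen KI against Tg, 0 to 1 for the difference of the KI effect and 0 to 4 for LN against spleen in Wt. The number of all genes called also moved between these fits, so these member counts are a description only. A fit without a KI or Wt library leaves 1 library in its group. The lambda share difference between KI and Wt ranged from -3.84 to 85.9 points in LN and from 1.08 to 86.8 points in spleen. Igkc ranged from -2.52 to 4.10 in LN KI against Wt, from -3.70 to 2.16 in spleen KI against Wt and from -1.76 to 4.87 for the difference of the KI effect, where Iglc2 ranged from -0.011 to 1.87, Iglc3 from -0.42 to 2.03 and Iglv3 from -0.0083 to 2.56. In LN Tg against Wt, Iglc1 ranged from -0.14 to 0.53, Iglc2 from -0.12 to 0.52, Iglc3 from -0.46 to 0.45, Iglv1 from -0.44 to 0.38 and Iglv3 from -0.19 to 0.31. In spleen Tg against Wt, Iglc1 ranged from -0.23 to 0.46, Iglv1 from -0.30 to 0.59 and Iglv2 from -1.29 to 0.25. Beyond the fewer libraries of each such fit, the cause was not tested.

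Scaling without immunoglobulin and haemoglobin genes moved the median of all genes to 0.11 in LN and 0.10 in spleen for KI against Wt, from -0.02 and 0.01. It called 2107 genes higher and 853 lower in LN, against 1502 and 1331, and 1419 higher and 770 lower in spleen, against 830 and 1003. Depth limits the kappa J values of mouse 6, which are bounds at 3 reads.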
